A study of Mus musculus with 10 samples.

Results

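The genes described here are the machinery that a cell uses to fold proteins in the endoplasmic reticulum (ER), to move them towards secretion and to answer a backlog of unfolded protein. They are 42 named genes, all found by symbol among the 46959 genes of the count table. They were listed by name for their role and not by a threshold on any value. The list was nevertheless chosen with earlier results of these data known, so the share of members called is a description and not an independent test. RNA-seq was made from 10 mouse libraries of a series on HDAC inhibitors and transcription of the immunoglobulin heavy chain locus. Spleen cells without CD43-positive cells, which leaves mainly B cells, were grown for 2 days with 5 µg/ml lipopolysaccharide (LPS), from bacterial membranes, under which B cells divide and part of them begin to secrete antibody. The 3 splenic groups of 2 libraries were wild-type (WT; the protocol names BLACK-6 mice) with LPS, WT with LPS and 200 ng/ml SAHA, and KOKI mice with LPS. SAHA (vorinostat) inhibits histone deacetylases, and it was added when the cultures began. The labels do not spell out the KOKI allele; title and design text give the KOKI cultures LPS alone, whereas their treatment label also names SAHA, so they were compared with both WT groups. Femoral RNA came from 4 pools, each of 3 mice, taken without culture: 2 pools lacked RAG2 and gamma C (controls), 1 was KOKI lacking both proteins and 1 was KOKI lacking RAG2 alone. RAG2 is needed to rearrange antigen receptor genes and gamma C is a receptor chain shared by several interleukins, so all femoral mice, controls included, were immune deficient. Nothing in the labels says that the splenic replicates came from separate animals, so p-values measure the spread between these libraries; that spread may be technical in the WT groups, while the KOKI pair differed in sex-linked RNA and so came from different animals.

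Proteins bound for secretion enter the ER through the Sec61 channel and lose their signal peptide to signal peptidase. Chaperones such as BiP and disulfide isomerases then fold them, lectin chaperones hold their sugar chains, and COPII coats carry the finished product to the Golgi. Chains that fail to fold are trimmed, pulled back and degraded. The sensors IRE1α (gene Ern1), ATF6 and PERK detect unfolded protein; IRE1α splices the Xbp1 message into one that encodes an active transcription factor. B cells that turn into plasma cells are known to enlarge this whole apparatus, and XBP1 is needed for that.

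Total counts ran from 18614742 to 29314068 per library. Levels are counts per 1000000 (CPM) with library sizes scaled by TMM, and levels between genes are CPM per kilobase of the deposited gene length (RPKM). The splenic libraries carried B cell RNA: Ms4a1 (CD20) stood at 924 to 987 CPM and Cd79a, part of the B cell receptor, at 298 to 422 CPM. In the libraries labelled femoral B cells Ms4a1 was at 0 in 3 of the 4 and at 0.089 CPM in the other, and Cd79a was at 0.0426 to 0.312 CPM, while 7 neutrophil markers summed to 11400 to 19660 CPM there and to 0.781 to 4.07 CPM in spleen. KOKI replicate 2 was the only splenic library with RNA of Xist, the X-inactivation transcript, at 486 CPM against at most 0.42 CPM elsewhere, and had 1.14 CPM of the Y-linked Ddx3y against 148 to 249.8 CPM in the other splenic libraries. In bulk RNA, fewer cells of a type and less RNA per cell cannot be told apart.

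Several members carry, ahead of their start site, the letters that ATF6 and XBP1 are known to bind. The stretches shown were picked with the values known, so they cannot show that motif and change go together. Ern1 and Pdia4, which rose in KOKI cultures (log2 1.45 and 1.09), hold none of the motifs described here. Calr, Canx and Syvn1 hold one and did not pass there. The start regions came from RefSeq (GRCm38.p6), from 250 bases before to 50 after each start site; 33 of the 42 members had one. The start site is RefSeq's and can differ from the outer end of the deposited gene. Each sequence reads 5′ to 3′ on the strand of its gene, and capitals mark the motif letters. The ER stress element (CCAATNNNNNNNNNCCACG, searched on both strands, so that it may also appear reversed and complemented) stands in these stretches of Hspa5 (chr2:34772005-34772063, + strand), Hsp90b1 (chr10:86705513-86705676, − strand, where it occurs 2 times), Creld2 (chr15:88819500-88819558, + strand) and Derl3 (chr10:75893222-75893280, + strand).
Hspa5: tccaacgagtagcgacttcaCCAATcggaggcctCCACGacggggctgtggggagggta
Hsp90b1: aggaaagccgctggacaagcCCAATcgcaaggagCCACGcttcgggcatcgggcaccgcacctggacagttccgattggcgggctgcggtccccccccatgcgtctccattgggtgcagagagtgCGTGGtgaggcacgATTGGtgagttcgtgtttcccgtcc
Creld2: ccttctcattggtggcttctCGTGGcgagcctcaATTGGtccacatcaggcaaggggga
Derl3: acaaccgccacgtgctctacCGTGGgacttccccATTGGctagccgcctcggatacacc

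The UPR element (TGACGTGG), a known XBP1 and ATF6 site, stands before the start sites of Sec24d (chr3:123267450-123267495, + strand), Txndc5 (chr13:38528025-38528072, − strand) and Txndc11 (chr16:11134607-11134654, − strand). The second form of the ER stress element (ATTGGNCCACG) stands before that of Herpud1 (chr8:94386357-94386407, + strand).
Sec24d: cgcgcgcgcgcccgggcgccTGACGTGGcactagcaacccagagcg
Txndc5: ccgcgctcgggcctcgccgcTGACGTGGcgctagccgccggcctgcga
Txndc11: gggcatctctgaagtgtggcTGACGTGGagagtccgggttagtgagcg
Herpud1: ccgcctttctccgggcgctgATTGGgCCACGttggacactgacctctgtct

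Over all members with a start region, 9 of 33 (27.3%) held the ER stress element: Calr, Canx, Creld2, Derl3, Dnajc3, Hsp90b1, Hspa5, Pdia6 and Syvn1. Of all 27025 genes with such a region, 37 (0.137%) held it. The second form was in 2 members (6.06%), Herpud1 and, after its start site, Dnajb11, against 0.044% of all genes, and the UPR element in 3 (9.09%) against 0.714%. A plain CCAAT box, which is part of the ER stress element, was in 26 members (78.8%) and in 41.1% of all genes. A match describes the letters, not a bound site, and many members are textbook targets that were used to define these motifs.

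In WT LPS cultures the members spanned a wide range of levels per length. Mzb1, an ER protein of B and plasma cells that assists antibody assembly, was first at 317 RPKM, followed by the lectin chaperone Calr at 272 RPKM, BiP (Hspa5) at 219 RPKM and its HSP90 counterpart GRP94 (Hsp90b1) at 214 RPKM. The lowest were Txndc11 at 4.25 RPKM, the COPII cargo adaptor Sec24d at 1.78 RPKM and Ern1 at 1.24 RPKM. Summed over all 42, the level was 9301 and 8078 CPM in WT LPS, 5770 and 5346 CPM with SAHA, and 13050 and 13140 CPM in KOKI LPS. The 3 splenic groups did not overlap in this sum; the femoral libraries stood at 6138 to 7050 CPM, between the SAHA and the WT LPS cultures.

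**Figure D1:**
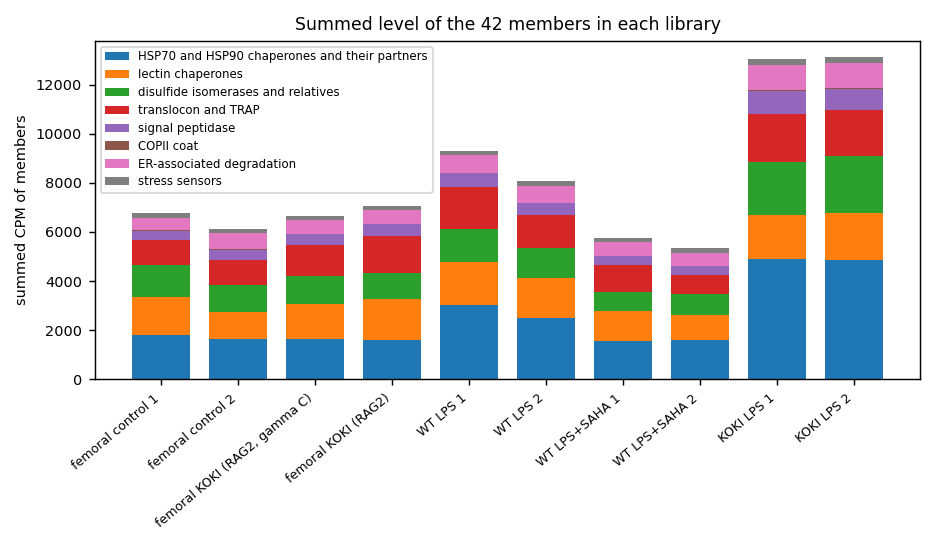
Summed CPM of the 42 members in each of the 10 libraries, stacked by role, with TMM-scaled library sizes. KOKI LPS cultures reach 13050 and 13140 CPM, WT LPS cultures 9301 and 8078 CPM and WT LPS+SAHA cultures 5770 and 5346 CPM.

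With SAHA, genes of folding, translocation and signal peptide removal were lower in WT LPS cultures. Of the 42 members, 10 fell and 0 rose (edgeR's quasi-likelihood test, Benjamini-Hochberg adjusted p under 0.05 over all 15342 genes tested), that is 23.8% lower, where 3.69% of all genes were called lower and 0.952% higher. The fitted value was negative for 41 of 42 members, with a median log2 fold change of −0.57 beside 0.02 over all genes. The falls comprised 3 of 10 HSP70 and HSP90 chaperones and partners, 2 of 7 disulfide isomerases and relatives, 2 of 7 translocon and TRAP genes, 2 of 4 signal peptidase subunits and Sec24d. None of 9 degradation genes, 2 lectin chaperones or 2 sensors passed in this fit. The split by role depends on the fit. With the number in the sample title as a replicate block, 33 of the 42 were lower, beside 2173 of 14961 genes. The labels do not say that equal numbers share an animal.

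Among the chaperones, Hsp90b1 stood at 1003 and 722 CPM in WT LPS and at 403 and 425 CPM with SAHA. Both treated libraries lay below both untreated ones, although the untreated pair was itself spread; the log2 fold change was −1.03 (SE 0.21, edgeR adjusted p = 0.0389). Manf, a small ER protein that is released under stress, went from 162 and 144 CPM to 78.2 and 90.8 CPM (log2 −0.83, SE 0.16, edgeR adjusted p = 0.0384). Creld2, another stress-induced ER protein, went from 37.0 and 40.2 CPM to 21.7 and 23.5 CPM (log2 −0.74, SE 0.13, edgeR adjusted p = 0.0294). In both genes the 2 groups were apart by more than either pair differed. BiP itself was at 1009 and 846 CPM without and 546 and 578 CPM with SAHA, which did not pass (log2 −0.69, SE 0.18, edgeR adjusted p = 0.0681). Mzb1 likewise missed the threshold, at 326 and 248 CPM against 184 and 147 CPM (log2 −0.76, edgeR adjusted p = 0.0581).

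Of the disulfide isomerases, which make and shuffle the bonds that hold antibody chains together, Pdia3 and Pdia6 fell. Pdia3, the partner of the lectin chaperones, had 337 and 274 CPM in WT LPS and 160 and 179.7 CPM with SAHA (log2 −0.82, SE 0.16, edgeR adjusted p = 0.0378). Pdia6 had 315 and 295 CPM and then 176 and 180.3 CPM (log2 −0.75, SE 0.15, edgeR adjusted p = 0.0377). The treated libraries lay below the untreated ones in both, and Pdia6 varied least within pairs. Txndc11 was the least changed of this role, with a log2 fold change of −0.13.

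At the channel, 2 subunits of TRAP, the complex that helps chains enter beside Sec61, were lower. Ssr2 was at 93.3 and 81.3 CPM and then 45.9 and 50.7 CPM (log2 −0.82, SE 0.14, edgeR adjusted p = 0.0267), and Ssr4 at 119 and 95.2 CPM and then 64.8 and 57.1 CPM (log2 −0.78, SE 0.15, edgeR adjusted p = 0.0367). The signal peptidase subunits Spcs3 (179 and 160 CPM against 102 and 98.7 CPM, log2 −0.73, edgeR adjusted p = 0.034) and Spcs2 (114 and 103 CPM against 62.8 and 74.1 CPM, log2 −0.63, edgeR adjusted p = 0.0449) fell too. In all 4 genes both treated libraries were below both untreated ones. Sec61g showed no such separation: its untreated libraries stood at 426 and 265 CPM and its treated ones at 373 and 131 CPM, with overlap. Sec24d, the COPII subunit that picks cargo, was low throughout and fell from 10.9 and 11.6 CPM to 5.79 and 5.22 CPM (log2 −1.003, SE 0.17, edgeR adjusted p = 0.0279).

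The degradation genes and sensors had log2 fold changes from −0.65 (Derl3) to 0.19 (Syvn1). Herpud1, a scaffold of the retrotranslocation complex, stood at 91.8 and 91.3 CPM without and 83.7 and 89.2 CPM with SAHA, and the ubiquitin ligase Syvn1 was the single member with a positive value, at 51.0 and 57.7 CPM against 63.9 and 58.1 CPM. Neither pair of groups was far apart (log2 −0.05 and 0.19, edgeR adjusted p = 0.825 and 0.435). Derl3, a Derlin of secretory cells, was at 7.58 and 11.9 CPM against 6.19 and 6.06 CPM (log2 −0.65, SE 0.24, edgeR adjusted p = 0.14). Ern1 had 8.52 and 11.8 CPM against 7.97 and 9.47 CPM, with overlapping groups, and Atf6 had 168 and 189 CPM against 161 and 174 CPM, also overlapping (edgeR adjusted p = 0.703 and 0.822).

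These calls were near the threshold and rested on each library. A fit with 1 library left out holds a group of 1 library, and calls were then fewer over all genes, not among the members alone. The members' median log2 fold change in these fits ran from −0.636 (without SAHA replicate 1) to −0.516 (without WT LPS replicate 1). DESeq2 called 23 members lower, beside 901 of 34917 genes. A fit of the 2 compared groups alone called 0 members lower, beside 0 of 14961 genes. A fit of all 10 libraries called 0, beside 143 of 20204 genes. No member was thus called under every setting. Plasma cell markers moved in the same direction: 6 of them (Prdm1, Jchain, Sdc1, Irf4, Tnfrsf17 and Ell2) summed to 497 and 505 CPM in WT LPS and to 357 and 347 CPM with SAHA, and 2 of the 5 tested fell. The 6 macrophage markers summed to 26.5 and 25.5 CPM and then to 48.1 and 45.2 CPM, and the 6 T cell markers to 14.2 and 14.3 CPM and then to 18.1 and 18.5 CPM, with no marker at 0 apart from 1 T cell marker in SAHA replicate 1 and 1 plasma cell marker, Tnfrsf17, in 3 of the 4 libraries. The part of these cell types in the result was not tested.

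**Figure D2:**
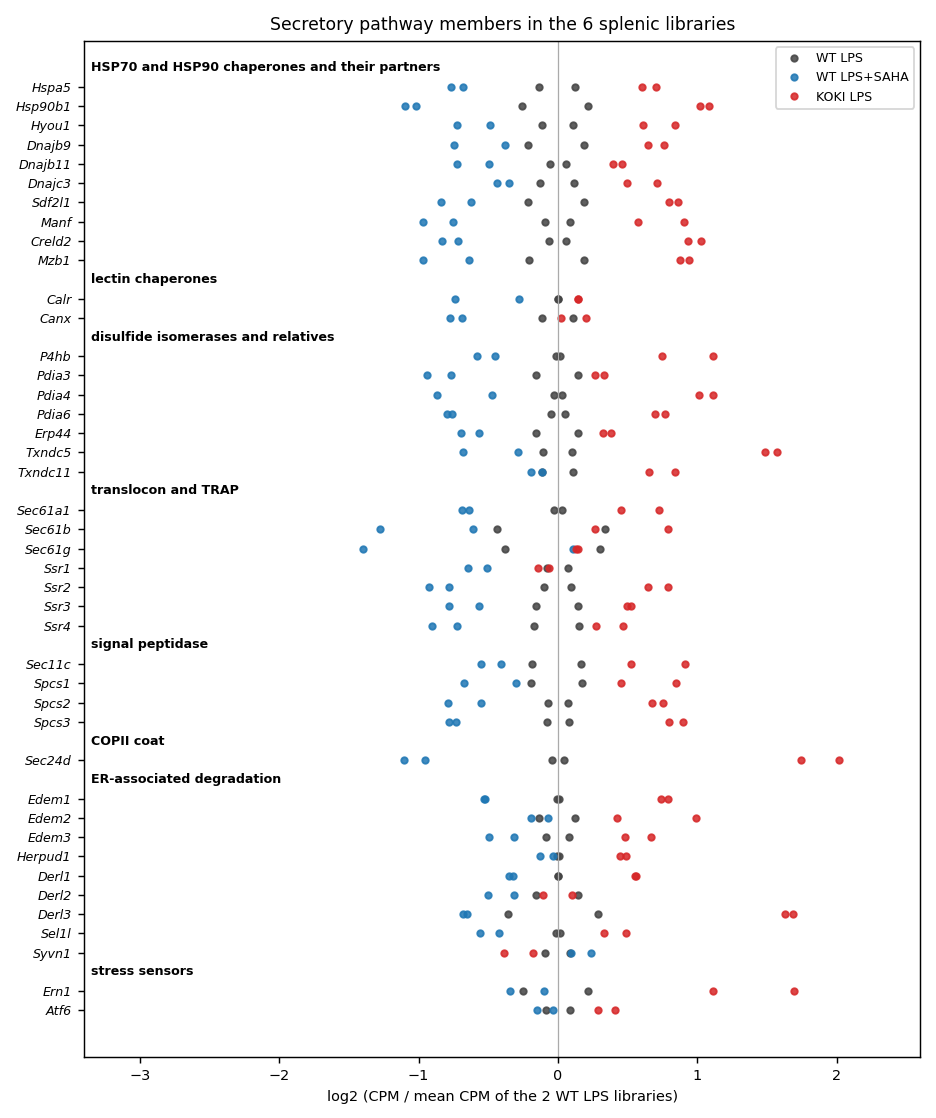
Each point is 1 of the 6 splenic libraries, placed at the log2 ratio of its CPM to the mean of the 2 WT LPS libraries (grey, with SAHA blue, KOKI red), for the 42 members grouped by role. SAHA points lie left of WT LPS for most members and KOKI points to the right, farthest for Sec24d, followed by points of Ern1, Derl3 and Txndc5. Calr, Canx, Sec61g, Ssr1, Derl2 and Syvn1 show little or no rise in KOKI.

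In KOKI LPS cultures, genes of the same machinery were higher than in WT LPS cultures. Here 21 of 42 members rose and 0 fell, 50% of them, where 2.25% of all 15342 genes were called higher and 1.83% lower. The median log2 fold change of the members was 0.71, beside −0.02 over all genes, and 40 of 42 values were positive. By role, 7 of 10 HSP70 and HSP90 chaperones and partners, 5 of 7 disulfide isomerases and relatives, 4 of 9 degradation genes, 2 of 4 signal peptidase subunits, 1 of 7 translocon and TRAP genes, 1 of 2 sensors and Sec24d rose. Neither lectin chaperone did. The comparison shares the WT LPS libraries with the SAHA comparison, so the opposite signs of the 2 are not independent of each other.

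Sec24d (chr3:123267455-123365641, + strand) had the largest rise of all members. It stood at 10.9 and 11.6 CPM in WT LPS and at 45.5 and 37.6 CPM in KOKI LPS, with the groups far apart (log2 1.91, SE 0.16, edgeR adjusted p = 0.00086). Derl3 (chr10:75893398-75895941, + strand), which helps pull misfolded chains out of the ER, went from 7.58 and 11.9 CPM to 30.2 and 31.3 CPM (log2 1.67, SE 0.23, edgeR adjusted p = 0.00678). Txndc5 (chr13:38500273-38528824, − strand), a disulfide isomerase, went from 96.8 and 112 CPM to 293 and 311 CPM (log2 1.55, SE 0.18, edgeR adjusted p = 0.00307). Both KOKI libraries exceeded both WT libraries in all 3 genes. Together with Creld2 (37.0 and 40.2 CPM against 78.8 and 73.8 CPM, log2 1.00, edgeR adjusted p = 0.00508), these were the 4 members that passed under each of the 12 alternative settings.

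The sensor gene Ern1 (chr11:106394650-106487852, − strand) rose from 8.52 and 11.8 CPM to 21.9 and 32.9 CPM, so that the lower KOKI library was above the higher WT one (log2 1.45, SE 0.26, edgeR adjusted p = 0.0216). Atf6, the other sensor, was at 168 and 189 CPM and then at 218 and 238 CPM; the groups did not overlap, but the difference did not pass (log2 0.37, SE 0.15, edgeR adjusted p = 0.236). Xbp1, whose message IRE1α splices and which is not among the 42, went from 106 and 113 CPM to 318 and 297 CPM (log2 1.51, SE 0.15, edgeR adjusted p = 0.00174). Counts per gene do not separate its spliced from its unspliced form.

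Among the chaperones, Hsp90b1 went from 1003 and 722 CPM to 1825 and 1744 CPM (log2 1.08, SE 0.21, edgeR adjusted p = 0.0293), and Mzb1 from 326 and 248 CPM to 551 and 526 CPM (log2 0.93, SE 0.19, edgeR adjusted p = 0.0345). Both KOKI libraries lay well above both WT libraries in each. BiP was at 1009 and 846 CPM and then at 1405 and 1508 CPM, also without overlap, yet below the threshold of the test (log2 0.68, SE 0.18, edgeR adjusted p = 0.0953). The remaining chaperones that rose were Sdf2l1, a partner of the HSP40 protein Dnajb11 (log2 0.85), Manf (0.77), the HSP70 relative Hyou1, which exchanges nucleotide on BiP (0.75), and the BiP cochaperone Dnajc3 (0.63). Dnajb9 and Dnajb11, 2 more HSP40 partners of BiP, had log2 fold changes of 0.73 and 0.45 that did not pass.

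Among the isomerases, Pdia4 went from 220 and 211 CPM to 436 and 467 CPM (log2 1.09, SE 0.17, edgeR adjusted p = 0.0135), and P4hb, the founding protein disulfide isomerase, from 201 and 205 CPM to 341 and 439 CPM (log2 0.96, SE 0.17, edgeR adjusted p = 0.0214). WT libraries were close together in both, and the KOKI libraries were above them. Txndc11 and Pdia6 rose by log2 0.77 and 0.76. Pdia3, which works with the lectin chaperones, had a value of 0.32 that did not pass, and Erp44, which retrieves unassembled IgM from the Golgi, one of 0.38 (edgeR adjusted p = 0.356 and 0.215). The lectin chaperones themselves were near their WT levels: Calr was at 785 and 784 CPM and then at 866 and 868 CPM, and Canx at 983 and 840 CPM and then at 923 and 1047 CPM, with overlap for Canx (edgeR adjusted p = 0.744 and 0.771).

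Spcs3, a signal peptidase subunit, went from 179 and 160 CPM to 315 and 294 CPM (log2 0.87, SE 0.14, edgeR adjusted p = 0.0125), and the other called subunit, Spcs2, rose by log2 0.74. Ssr2 was the one TRAP gene that rose, from 93.3 and 81.3 CPM to 137 and 151 CPM (log2 0.75, SE 0.13, edgeR adjusted p = 0.0224). Of its partners, Ssr1 had a value of −0.08 and Ssr3 and Ssr4 values of 0.53 and 0.40 that did not pass. Among the mannosidase-like proteins that mark misfolded glycoproteins, Edem1 went from 188 and 189.6 CPM to 327 and 315 CPM (log2 0.79, SE 0.13, edgeR adjusted p = 0.0176), and Edem3 rose by log2 0.60. The groups were apart in Spcs3, Ssr2 and Edem1. Derl1 rose by log2 0.58, Derl2 had a value of 0.03, and Syvn1 was at 51.0 and 57.7 CPM in WT LPS and at 41.5 and 48.1 CPM in KOKI LPS (log2 −0.26, edgeR adjusted p = 0.405).

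Among members with a start region, 5 of the 9 that hold the ER stress element rose in KOKI, all 3 with the UPR element, 0 of the 2 with the second form, and 7 of the 19 with none of these; 6 of the 9 members without a start region rose. Median log2 fold changes in that order were 0.68, 1.55, 0.47, 0.60 and 0.75. Of those with the ER stress element, Hspa5, Canx, Calr and Syvn1 did not pass.

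Plasma cell markers were also higher in KOKI cultures: the 6 summed to 497 and 505 CPM in WT LPS and to 1088 and 950 CPM in KOKI LPS, and 4 of the 5 tested rose. Prdm1, the regulator of plasma cell differentiation, was at 31.8 and 32.7 CPM and then at 88.0 and 80.3 CPM. The T cell markers gave sums of 9.79 and 8.57 CPM in KOKI against 14.2 and 14.3 CPM in WT, and macrophage markers to 27.5 and 31.5 CPM against 26.5 and 25.5 CPM. Within the macrophage list 1 marker rose and 1 fell: Itgam was at 16.3 and 17.4 CPM in KOKI against 3.36 and 1.90 CPM, and Lyz2 at 3.47 and 5.03 CPM against 11.9 and 10.8 CPM. Their part in the result was not tested. Fewer members were called higher when any KOKI or WT LPS library was left out, KOKI replicate 2, the library with Xist, among them. Each such fit holds a group of 1 library, and fewer of all genes were called higher in it as well. The members' median log2 fold change stayed between 0.60 and 0.75 in these fits.

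Set against WT LPS+SAHA, the comparison that applies if the treatment label of the KOKI cultures is right, 36 members were higher in KOKI LPS and 0 lower (85.7%), where 14.1% of all genes were called higher and 9.64% lower. The median log2 fold change was 1.22 for the members and −0.03 for all genes. Sec24d was at 5.79 and 5.22 CPM in the SAHA cultures against 45.5 and 37.6 CPM (log2 2.91, SE 0.18, edgeR adjusted p = 0.000152). Derl3 was at 6.19 and 6.06 CPM against 30.2 and 31.3 CPM (log2 2.32), Hsp90b1 at 403 and 425 CPM against 1825 and 1744 CPM (log2 2.10), and Txndc5 at 65.0 and 85.5 CPM against 293 and 311 CPM (log2 2.00). The groups did not overlap in these genes. BiP, which passed in neither comparison with WT LPS, was at 546 and 578 CPM against 1405 and 1508 CPM (log2 1.37, SE 0.19, edgeR adjusted p = 0.00254). The 6 members that did not pass were Calr, Ssr1, Sec61g, Derl2, Atf6 and Syvn1, and Syvn1 was the single negative value (log2 −0.45, edgeR adjusted p = 0.0522). Beside it, 5 of 5 plasma cell markers tested were higher in KOKI, 1 of 5 T cell markers was lower, and of 6 macrophage markers 1 was higher and 3 lower; their part in the result was not tested. This comparison uses the same libraries as the other 2 and adds no independent evidence.

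A further 88 genes of the same pathways, in 8 lists that hold none of the 42, were counted the same way. With SAHA 7 of the 86 tested fell and 0 rose, with a median log2 fold change of −0.30, where 3.69% of all genes fell. In KOKI 12 rose and 0 fell, with a median of 0.34, where 2.25% of all genes rose. In KOKI against SAHA 49 were higher and 1 lower, with a median of 0.67, where 14.1% of all genes were higher and 9.64% lower. The 42 members had medians of −0.57, 0.71 and 1.22 in that order, each farther from 0. Members and further lists were chosen with earlier results of these data known, so this contrast is a description only. Among the other regulators, Chac1, a glutathione-degrading enzyme of the PERK and ATF4 branch, fell with SAHA (log2 −2.13, SE 0.30, edgeR adjusted p = 0.0234), as did Xbp1, from 106 and 113 CPM to 48.8 and 60.1 CPM (log2 −0.98, SE 0.15, edgeR adjusted p = 0.025). Creb3l2, an ER-anchored transcription factor, rose in KOKI (log2 2.03, edgeR adjusted p = 0.00398). Atf4 was at 236 and 214 CPM in WT LPS, 143 and 151 CPM with SAHA and 244 and 272 CPM in KOKI, and Ddit3 (CHOP), a transcription factor of prolonged stress, at 11.3 and 10.7 CPM, 12.2 and 11.05 CPM, and 7.72 and 11.6 CPM; neither passed against WT LPS.

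The largest rise among these 88 in KOKI was Fkbp11, a prolyl isomerase of secretory cells, which went from 2.51 and 1.79 CPM to 13.6 and 15.4 CPM (log2 2.78, SE 0.30, edgeR adjusted p = 0.00246). Of the oligosaccharyltransferase, which attaches sugar chains, 4 of 11 rose in KOKI, led by Rpn1 (log2 0.77), and 2 fell with SAHA, led by Magt1 (−0.65). The translocation factor Tram2 (log2 1.42), the KDEL receptor Kdelr1, which returns ER proteins from the Golgi (0.86), and Vimp (0.72) rose in KOKI. With SAHA the falls in their lists were the cargo receptor Lman1 (log2 −0.77), the oxidase Ero1l, which recharges disulfide isomerases (−0.74), and Vimp, a degradation factor (−0.84). Of the signal recognition particle and its receptor, 0 of 9 fell with SAHA and 0 rose in KOKI against WT LPS, with medians of −0.38 and 0.38. Of all genes, 3.69% fell and 2.25% rose in these comparisons. In KOKI against SAHA 8 of the 9 were higher (median 0.81), where 14.1% of all genes were.

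Spleen and femur differed in which members were high. Against the femoral controls, 17 members were higher and 4 lower in WT LPS cultures (40.5% and 9.52%), where 21.1% of the 20204 genes tested were called higher and 21.3% lower; the share of members lower was below that of all genes and the share higher was above it. Tissue, culture, genotype and cell makeup differ together in this comparison and cannot be told apart. Mzb1 had 326 and 248 CPM in WT LPS and 0.291 and 1.66 CPM in the femoral controls (log2 8.20, SE 0.56, edgeR adjusted p = 3.69e-07), and Derl3 had 7.58 and 11.9 CPM against 0.174 and 0.119 CPM (log2 6.01, SE 0.40, edgeR adjusted p = 2.97e-07). Both were near 0 in the femoral pools. Next came Syvn1 (51.0 and 57.7 CPM against 10.3 and 20.2 CPM, log2 1.84), Sec61g (426 and 265 CPM against 66.3 and 134 CPM, log2 1.78), Manf (log2 1.33), Creld2 (1.28), Erp44 (1.15) and Pdia4 (0.92). BiP had 521 and 603 CPM in the femoral controls, below both WT LPS libraries (log2 0.72, SE 0.23, edgeR adjusted p = 0.0237), and Atf6 had 98.7 and 98.9 CPM there (log2 0.85, edgeR adjusted p = 0.00193).

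Ern1 went the other way. It had 68.8 and 91.5 CPM in the femoral controls against 8.52 and 11.8 CPM in WT LPS (log2 −2.98, SE 0.26, edgeR adjusted p = 2.65e-06), and every femoral library was above every splenic one. Sec24d had 23.3 and 31.6 CPM in the controls (log2 −1.29, SE 0.21, edgeR adjusted p = 0.000385), above WT LPS and below the KOKI cultures at 45.5 and 37.6 CPM. P4hb had 393 and 365 CPM (log2 −0.90, edgeR adjusted p = 0.00386), and Dnajb9 48.0 and 50.5 CPM (log2 −0.60, edgeR adjusted p = 0.0259). Among the other 88 genes, 23 were higher and 10 lower in WT LPS, where 21.1% of all genes were higher and 21.3% lower. Their higher count was thus not far from the share of all genes. With RLE in place of TMM scaling the median of all genes moved from −0.02 to −0.17. In that fit 13 members were higher and 5 lower, beside 3556 and 4841 of 20204 genes. Without WT LPS replicate 1 the members' median log2 fold change was 0.265, against 0.411 in the main fit.

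**Figure D3:**
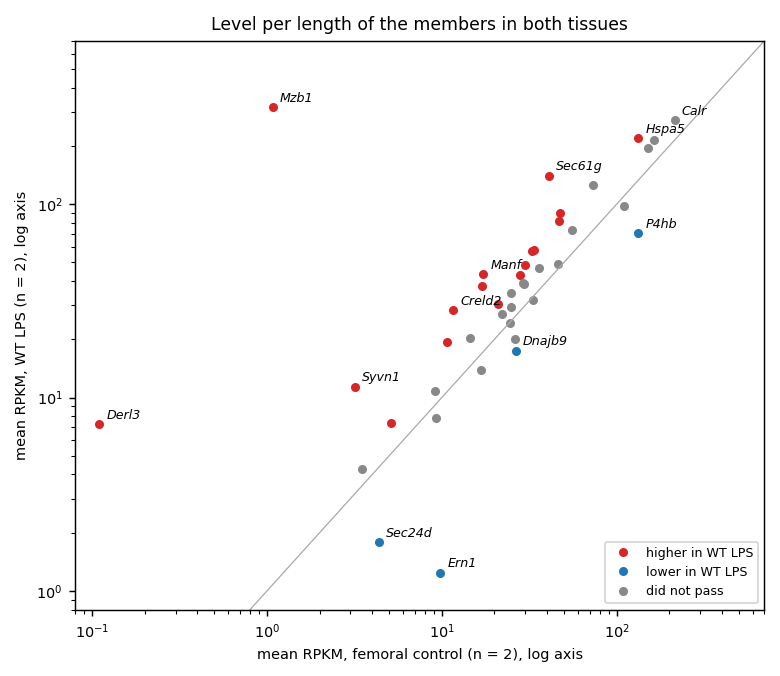
Mean RPKM of each of the 42 members in the femoral controls (x axis) and in WT LPS cultures (y axis), both log axes, with n = 2 libraries each and the grey line marking equal levels. Mzb1 and Derl3 stand far above the line, Ern1 and Sec24d below it, and most members lie close to it.

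In the femoral libraries no member passed edgeR's test between the KOKI pools and the controls. Of the 41 members tested (Derl3 was too low, at 0.119 to 0.178 CPM), 0 were higher and 0 lower, where 0.0301% of 16624 genes were called higher and 0% lower. At an unadjusted p under 0.05 there were 7 members and 2687 genes, the smallest adjusted p of a member was 0.118, and the median log2 fold change was 0.10. Gamma C status differs within this contrast, since the controls and 1 KOKI pool lack it and the other KOKI pool does not; with the KOKI pool on the controls' background alone, 0 members and 0 genes passed, and 8 members and 1660 genes had an unadjusted p under 0.05. DESeq2 called 2 members, Sec61g and Spcs1, both higher, beside 419 genes higher and 209 lower of 24989. Sec61g, a small subunit of the channel, was at 66.3 and 134 CPM in the controls, 243 CPM with KOKI on the background without RAG2 and gamma C, and 354 CPM with KOKI on the background without RAG2 (edgeR log2 1.58, SE 0.34). Spcs1 was at 41.8 and 50.2 CPM, 72.7 CPM and 85.3 CPM (edgeR log2 0.79, SE 0.19). These genes were named after their values were seen, and both KOKI pools were above both controls in each.

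None of the members followed in spleen passed in the femoral pools. Sec24d was at 23.3 and 31.6 CPM in the controls and at 33.1 and 34.0 CPM in the KOKI pools (log2 0.29, SE 0.20, edgeR adjusted p = 0.498). BiP was at 521 and 603 CPM and at 600.0 and 577 CPM, with overlap (log2 0.07), and Ern1 at 68.8 and 91.5 CPM and at 71.2 and 76.0 CPM, also overlapping (log2 −0.12). Atf6 was at 98.7 and 98.9 CPM and at 80.9 and 88.5 CPM (log2 −0.22, edgeR adjusted p = 0.579), and Mzb1 at 0.291 and 1.66 CPM and at 2.80 and 3.96 CPM (log2 1.81, SE 0.72, edgeR adjusted p = 0.277). Marker levels in these pools varied and none passed the test: 5 bone stroma markers summed to 448 and 1113 CPM in the controls and to 2200 and 2129 CPM in the KOKI pools, and the 7 neutrophil markers to 14710 and 11400 CPM and to 11990 and 19660 CPM, with overlap. The part of these cells in the values was not tested. Leaving out control replicate 1 gave 8 members higher and 0 lower, beside 1115 genes higher and 999 lower of 17258, and leaving out control replicate 2 gave 9 members higher and 3 lower, beside 1795 and 1661 of 17362, in fits with a single control library that is assumed to vary like the KOKI pools.

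The KOKI difference was tested between the tissues directly, as the log2 fold change in spleen minus that in femur. Of the 42 members, 2 passed (4.76%), both larger in spleen, where 0.416% of the 20204 genes had a positive and 0.431% a negative call. For Txndc5 the difference was log2 1.64 (SE 0.27, edgeR adjusted p = 0.0212): it was at 111 and 98.5 CPM in the femoral controls and at 103 and 90.7 CPM in the femoral KOKI pools, levels close to those of WT LPS cultures. For Sec24d it was 1.60 (SE 0.29, edgeR adjusted p = 0.0303). Both of these genes hold the UPR element shown above; Txndc11, the third, had a difference of 0.56 that did not pass (edgeR adjusted p = 0.469). The median over members was 0.52, beside −0.02 over all genes, and Xbp1 had a difference of 1.43 (SE 0.26, edgeR adjusted p = 0.0296). Both calls were lost without any one of the WT LPS and KOKI LPS libraries. Each such fit holds a group of 1 library, and fewer of all genes passed in it as well. Ms4a1 and Cd79a were at or near 0 in the femoral libraries, so the tissues hold different cells.

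**Figure D4:**
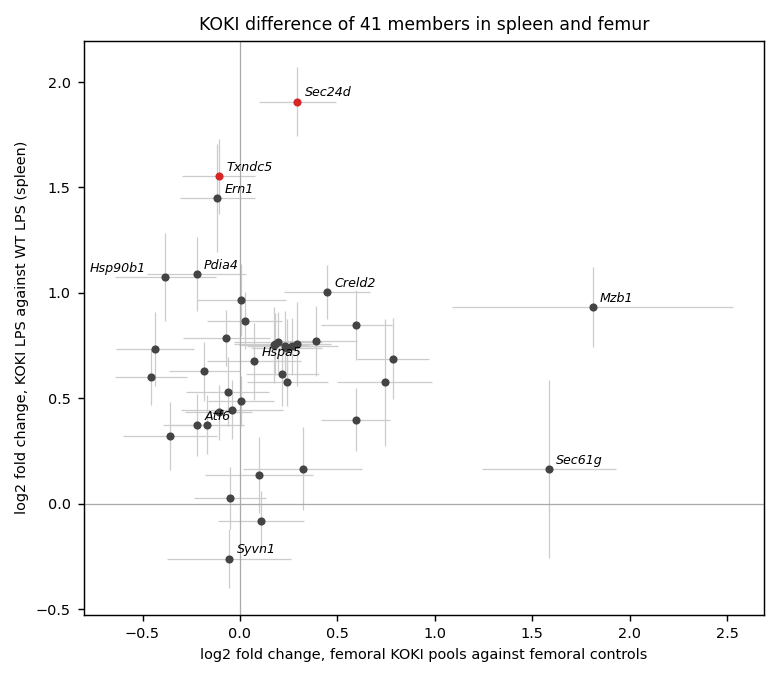
Log2 fold change of KOKI against its control in spleen (y axis) and in femur (x axis) for the 41 members tested in both, with bars of 1 SE in each direction. Sec24d and Txndc5 (red) are those whose difference between tissues passed the test; most other members lie above 0 in spleen and around 0 in femur, and Mzb1 and Sec61g lie to the right, with wide bars.

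Counts of 6 members are uncertain because another expressed gene covers part of their exons and the strand setting of the counting is not given in the sources used here. Snn, opposite Txndc11, reached 4936 counts where Txndc11 had at least 606, and Rbm15b, on the same strand as Manf, reached 2386 counts where Manf had at least 1363. The other 4 are Ssr2, Spcs1, Derl2 and Syvn1, each with a gene on the opposite strand.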

How the data were processed

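The authors deposited 1 table of unnormalized read counts. STAR 2.4.0a, featureCounts of Subread 1.4.6-p1 and the build mm10 (GRCm38) are named in the submitters' processing notes; per the labels' protocols, libraries were made with the TruSeq Stranded Total RNA kit. The 100 spike-in and phiX entries were left out. The table's coordinates are in mm10. The 42 members, the other pathway lists, the markers, tests and alternatives were chosen with earlier results of these data known. Tests used edgeR 4.0.16 in R 4.3.3 (TMM, filterByExpr at its defaults of 10 counts and 15 in total, quasi-likelihood F test, Benjamini-Hochberg over all genes), checked on simulated data. The 3 splenic comparisons came from 1 fit of 6 libraries, the femoral one from 4, and the tissue comparisons from all 10 in 6 groups, where a lone library is assumed to vary like the rest. The SE is the log2 fold change divided by the root of F. DESeq2 1.42.0 was an alternative, with RLE scaling, no filter, other sample sets and each library left out. Within the 4 groups of 2, replicates differed by a chi-square per degree of freedom of 92.6 to 161, so no pair were copies. Values per library are given for the called members with the largest changes in each role and for Hspa5, Mzb1, Sec24d, Derl3, Ern1 and Atf6; further members are named by count or where a sentence says so, and of each other list the called genes with the largest rise and fall. Reads carry no molecular identifiers. Protein sequences were not used here. One B cell marker, and the sum that includes it, is not reported here.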

Additional observations from a re-analysis of the deposited data

Results flagged for a closer look

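The KOKI difference of Txndc5 was larger in spleen than in femur by log2 1.645 (edgeR adjusted p = 0.0212), and that of Sec24d by log2 1.597 (edgeR adjusted p = 0.0303); each is listed because the difference between the 2 tissues was tested and passed. Over 11 alternatives the Txndc5 value ran from 1.51 to 1.76 and passed in 6, with adjusted p from 1.03e-05 to 0.137, and the Sec24d value ran from 1.39 to 1.80 and passed in 5, with adjusted p from 0.000171 to 0.132. Neither passed without any one of the 4 WT LPS and KOKI LPS libraries or without the femoral KOKI pool lacking RAG2 alone, and Sec24d did not pass without the other femoral KOKI pool. Fewer of all genes passed in each of these fits than in the main fit.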

How the results depend on the processing

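The number of members past the threshold depended on the fit far more than their direction did. Calls over all genes moved alongside in the SAHA comparison and in KOKI against WT LPS. With SAHA, 566 of 15342 genes were lower in the main fit, 901 of 34917 with DESeq2 and 1468 of 34917 unfiltered. The 2 groups alone gave 0 of 14961, all 10 libraries 143 of 20204 and the replicate block 2173 of 14961. For KOKI, 345 of 15342 were higher in the main fit, 214 of 20204 with all 10 libraries and 735 of 14392 with the block. With SAHA, 10 were called, against 23 with DESeq2, 24 without a filter on low counts, 0 in a fit of the 2 compared groups alone, 0 in a fit of all 10 libraries (with 33 and 31 members and 3765 and 3793 genes at an unadjusted p under 0.05), and 0 to 4 when 1 library was left out. For KOKI against WT LPS, 21 were called, against 9 in the fit of all 10 libraries and 4 to 19 when 1 library was left out. With the number in the title as a replicate block the counts were 33 (SAHA) and 32 (KOKI), in fits with 1 residual degree of freedom. The labels do not say that equal numbers share an animal. Over 15342 genes the deviations of equal numbers correlated at 0.453 between WT LPS and WT LPS+SAHA. They correlated at 0.13 between WT LPS and KOKI LPS and at 0.16 between WT LPS+SAHA and KOKI LPS. KOKI against WT LPS+SAHA gave 36 calls in the main fit, beside 3639 of 15342 genes, and 36 with all 10 libraries, beside 2439 of 20204. With the block 40 were higher and 1 lower, beside 4269 of 14464 genes called. The members' median log2 fold change there ran from 1.158 to 1.289 when 1 library was left out. Syvn1 was lower in that comparison under RLE scaling, in the 2 groups alone and with the block. In femur 0 members were called, beside 5 of 16624 genes. DESeq2 called 2, beside 628 of 24989 genes, and the fit without a filter 2, beside 662 of 24989. The members' median log2 fold change in femur ran from 0.105 to 0.174 when 1 library was left out. Spleen against femur gave 21, and 12 to 20 when 1 library was left out. The difference between tissues gave 2 calls, against 8 with DESeq2, 8 without a filter (1 of them lower, Sec61g) and 0 to 6 when 1 library was left out. Of uncalled members, log2 values with 1 library left out changed sign: with SAHA Ern1 ran from −0.413 to 0.06 and Atf6 from −0.162 to 0.016 (each positive without WT LPS replicate 2), and in femur Ern1 ran from −0.286 to 0.086 (positive without control replicate 2) and Hspa5 was −0.006 without control replicate 1. The cause of these shifts was not tested. Derl3 had too few femoral counts for the femoral test.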
